A study of Homo sapiens with 12 samples.

Results

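The adrenergic core transcription factors PHOX2A, HAND2, GATA2, GATA3, ISL1, TBX2, INSM1 and TFAP2B were followed across 12 RNA-sequencing libraries of SK-N-DZ, a MYCN-amplified neuroblastoma cell line. They were taken by gene name from the deposited count table, in which they are 8 of 43769 genes, and 8 of 8 passed the filter on low counts that left 15828 genes for testing. SK-N-DZ cells of a single clone carrying a doxycycline-inducible short hairpin RNA (shRNA) against ARID1A, a DNA-binding subunit of the SWI/SNF chromatin remodeling complex, were left untreated (control, C), given doxycycline for 4 days (D), given interferon gamma (IFNγ) for 24 h (I) or given both (DI), with 3 replicates per group. The labels list the genotype of C and I as WT and that of D and DI as shARID1A, and no group received doxycycline without the hairpin, so the drug and the hairpin cannot be told apart. Nothing in the labels says that the replicates are separate cultures, so p-values measure the spread between these libraries, which may be technical.

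Neuroblastoma arises from sympathoadrenal cells of the neural crest. In the noradrenergic, or adrenergic, state a small set of transcription factors bind to their own and to each other's enhancers, hold each other's expression high, and switch on the genes of catecholamine synthesis and neuronal function. PHOX2A and ISL1 are homeodomain proteins of sympathetic and sensory neuron development, HAND2 is a basic helix-loop-helix factor, GATA2 and GATA3 are zinc finger factors, TBX2 is a T-box factor, INSM1 is a zinc finger factor of neuroendocrine cells, and TFAP2B is an AP-2 factor of the neural crest.

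Values are in CPM, the read counts of a gene relative to library size after scaling by the trimmed mean of M values (TMM). The libraries held 16469832 to 21790869 counts each, at which 3 counts correspond to 0.135 to 0.187 CPM, and these depths cover counting error only. A gene was called changed at a Benjamini-Hochberg adjusted p under 0.05 over all tested genes in edgeR's quasi-likelihood test, in a model of the 4 groups. Libraries with the same replicate number stood together: after group means were removed, their correlations across genes ran from 0.347 to 0.757 in 18 pairs. The 48 pairs with different numbers ran from -0.715 to 0.0875. Removing the means of 3 libraries per group by itself pushes those pairs below 0, so their range is no separate evidence. A model that also holds the replicate number, the blocked model below, is therefore given beside the values of the 4-group model. ARID1A was at 165 to 197 CPM without either agent, 158 to 197 with doxycycline, 192 to 203 with IFNγ, and 133 to 151 with both. Its log2 change with doxycycline was -0.09 (SE 0.11) without IFNγ and -0.44 (SE 0.11) with it, and neither was called in the 4-group model (adjusted p = 0.788 and 0.115), while the blocked model called the second (adjusted p = 0.0111). Averaged over IFNγ it was -0.27 in both models (adjusted p = 0.0606 in the 4-group model and 0.00858 in the blocked model). IRF1, a transcription factor gene that IFNγ is known to induce, was at 1.81 to 2.90 CPM without IFNγ and at 342 to 442 CPM with it.

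Markers of the labelled cell type were present and summed higher than the markers of other cell types in every library. The 12 neuroblast markers fixed for this check summed to 2366 to 3625 CPM per library, with 2893 to 3339 CPM without either agent, 2366 to 2828 with doxycycline, 2936 to 3625 with IFNγ, and 2532 to 3234 with both. Leukocyte and endothelial markers summed to 0.695 to 3.44 CPM, and CD3E, MS4A1 and PECAM1 stayed at 3 counts or fewer in every library. Schwann and melanocyte markers summed to 18.3 to 83.9 CPM, with SOX10, FOXD3 and CDH19 at 3 counts or fewer. Fibroblast and mural markers summed to 60.2 to 117 CPM without either agent, 43.7 to 107 with doxycycline, 87.4 to 163 with IFNγ, and 69.0 to 135 with both, and their part in the results was not tested.

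Per length of exon, PHOX2A was the most abundant of the core factors and TFAP2B the least. The median over 12 libraries was 548 CPM per kb of exon for PHOX2A, 180 for GATA3, 128 for HAND2, 83.3 for TBX2, 52.2 for GATA2, 35.9 for INSM1, 28.98 for ISL1 and 0.221 for TFAP2B. PHOX2A, at 452 to 683 CPM per kb, did not overlap GATA3, at 153 to 234, and ISL1, at 15.5 to 33.9, did not overlap TFAP2B, at 0.0750 to 0.902. All other neighbors in this order overlapped in their ranges. TFAP2B rested on 9 to 89 counts per library, so it was detected in every library but at a level where counting error is large, while the other 7 factors had between 871 and 26584 counts.

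Family relatives of the core factors were not uniformly low. On the same scale HAND1, the sister gene of HAND2, had a median of 182 CPM per kb. INSM2 had a mean of 96.05 CPM per kb in C and 76.6 in I, against 45.4 and 34.0 for INSM1. With doxycycline INSM2 was at 41.3 in D and 33.0 in DI, against 35.4 and 28.9 for INSM1. TBX3 had a median of 25.7. ISL2 reached 5.85 and GATA4 1.52 CPM per kb, while GATA1, GATA5, TFAP2C and TFAP2D had medians of 0.

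**Figure D1:**
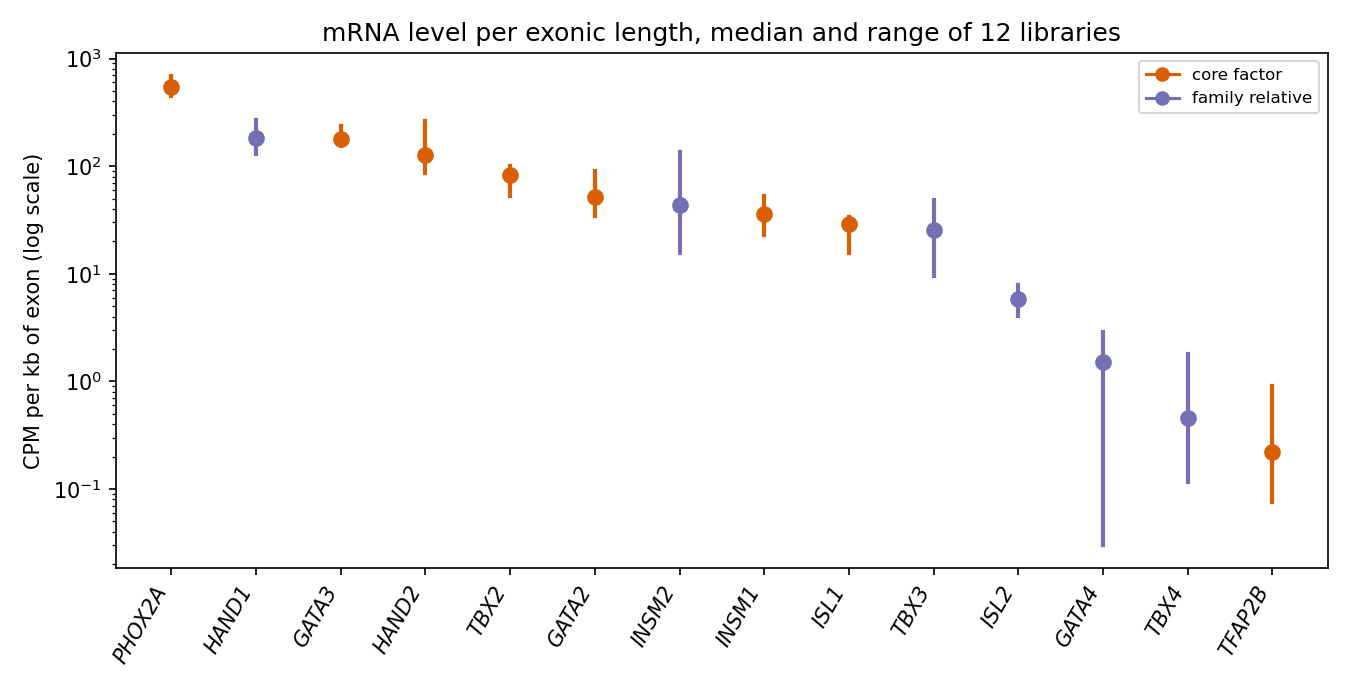
CPM per kb of exon (log axis) for the 8 core factors (orange) and family relatives that had counts in every library (purple), with the median as a point and the lowest to highest of 12 libraries as a line. PHOX2A stands above all others at a median of 548, and TFAP2B is lowest at 0.221.

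Of the 8 factors, PHOX2A followed IFNγ. PHOX2A (chromosome 11, 72239077 to 72245664, minus strand, GRCh38) was at 855, 837 and 895 CPM in C (862 ± 29.9, SD, n = 3) and at 850, 920 and 806 CPM in D. With IFNγ it was at 1081, 1111 and 1218 CPM in I (1137 ± 71.7, SD, n = 3) and at 1072, 1034 and 1197 CPM in DI. Every library with IFNγ was above every library without it. Averaged over both doxycycline states, PHOX2A rose by 0.38 on the log2 scale (SE 0.065, 1.30-fold, adjusted p = 0.00533, edgeR), the single call among the 8 factors where 3.81% of all tested genes were called. In bulk RNA, more cells expressing a gene and more RNA per cell cannot be told apart.

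The size of the PHOX2A change was similar with and without doxycycline. It was 0.40 (SE 0.091) for I against C and 0.36 (SE 0.091) for DI against D, and the difference between these was -0.04 (SE 0.13, adjusted p = 1). Neither of the single comparisons passed the threshold in the 4-group model (adjusted p = 0.0517 and 0.113), where 2.21% and 1.72% of tested genes were called. Both passed in the blocked model (adjusted p = 0.0115 and 0.0274), where 6.02% and 4.46% of genes were called. Leaving out C replicate 2, C replicate 3 or I replicate 3 ended the first of these blocked calls (adjusted p = 0.0542 to 0.0748), and leaving out D replicate 1, D replicate 3, DI replicate 1 or DI replicate 3 ended the second (adjusted p = 0.0922 to 0.136). The exact permutation test of 3 libraries against 3 gave p = 0.1 for each, two-sided, the smallest it can give. Set side by side within replicate numbers, PHOX2A was higher with IFNγ in 6 of 6 ratios, from 1.12 to 1.49. The averaged PHOX2A call was lost without replicate 1 (adjusted p = 0.233) and without replicate 3 (adjusted p = 0.0751) in the 4-group model, and the blocked model kept it without any single library and without any replicate number. Doxycycline left PHOX2A at a log2 difference of -0.03 (SE 0.064).

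The region before the PHOX2A start is shown because PHOX2A was the factor called with IFNγ. It is the 250 bases before the RefSeq start in build GRCh38.p14, chr11:72244177-72244426 on the minus strand, printed 5′ to 3′ in the sense of the gene, and it lies inside an intron of a longer annotated PHOX2A transcript. No capitals are used, since neither the gamma-activated site letters TTCNNNGAA nor the core of the interferon-stimulated response element (ISRE), searched on both strands, occurs in it.
PHOX2A: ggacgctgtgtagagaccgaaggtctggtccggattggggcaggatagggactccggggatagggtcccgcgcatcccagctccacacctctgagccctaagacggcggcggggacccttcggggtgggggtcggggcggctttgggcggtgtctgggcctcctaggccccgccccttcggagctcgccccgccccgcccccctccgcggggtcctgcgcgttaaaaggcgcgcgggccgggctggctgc
The RefSeq promoter windows of 300 bases (250 before and 50 after the start) hold TTCNNNGAA in 7.66% and the ISRE core in 3.57% of 35116 cases. Windows were at hand for 6 of the 8 factors, and none of them held either motif. The PHOX2A region had a GC content of 73.2%. The absence says only that these letters are not in this window.

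INSM1 went the opposite way with IFNγ in the blocked model. INSM1 (chromosome 20, 20368121 to 20370949, plus strand) was at 134, 103 and 148 CPM in C and at 102, 85.1 and 101 CPM in I, so that all 3 libraries of I lay below the lowest of C. It was at 103, 81.8 and 115 CPM in D and 82.1, 64.9 and 98.7 CPM in DI, where the groups overlapped. Non-overlap between I and C thus held for 2 of 8 factors, PHOX2A and INSM1, against 15.1% of all tested genes, and between DI and D for PHOX2A alone, against 9.55%. Averaged over doxycycline, the INSM1 difference with IFNγ was -0.35 (SE 0.13, adjusted p = 0.264) in the 4-group model. The blocked model gave the same difference with an SE of 0.053 (adjusted p = 0.00129), as 10.9% of all genes were called there, and the call was kept without any single library and lost without replicate 1 (adjusted p = 0.0661). In the blocked model INSM1 also fell in I against C by 0.41 (SE 0.074, adjusted p = 0.00745), a call lost without replicate 1 (adjusted p = 0.170) or replicate 3 (adjusted p = 0.129), and for DI against D it was at -0.29 (SE 0.075, adjusted p = 0.0538). All 6 same-number ratios with IFNγ were below 1, from 0.684 to 0.856. Ratios on 1 side in all 6 pairs were seen with IFNγ for 2 of 8 factors and for 23.6% of all genes.

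The other 6 factors gave no call with IFNγ in either model. Their averaged log2 differences in the 4-group model ran from -0.44 for TFAP2B (SE 0.50) to 0.05 for TBX2 (SE 0.15), with -0.04 for GATA3 (SE 0.092), -0.10 for HAND2 (SE 0.27), -0.11 for GATA2 (SE 0.28) and -0.14 for ISL1 (SE 0.16). In the blocked model GATA2 (adjusted p = 0.0163) and TFAP2B (adjusted p = 0.0364) passed once D replicate 3 was left out. The median log2 difference over the 8 factors was -0.10, against -0.01 over all tested genes.

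With doxycycline 0 of 8 factors were called in the 4-group model, alone, under IFNγ or averaged, where 1.23%, 0.67% and 7.68% of genes were called. At an unadjusted p under 0.05 the averaged comparison held 3 factors, GATA3, TBX2 and INSM1, and 3710 of all 15828 tested genes. DESeq2 called 1 factor in that comparison, TBX2, and 2236 of the 15828 genes. The C libraries serve both single-treatment comparisons, and the averaged comparisons use all 12 libraries. The blocked model called 5 of 8 in the averaged comparison, where 29% of all genes were called, HAND2, INSM1 and TFAP2B lower and GATA3 and TBX2 higher. These same 5 had all 6 same-number ratios on 1 side, which 27.9% of all genes had. The groups D and C did not overlap for 1 of 8 factors, GATA3, against 19.2% of genes, and DI and I overlapped for all 8, while 16.6% of genes did not overlap there.

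**Figure D2:**
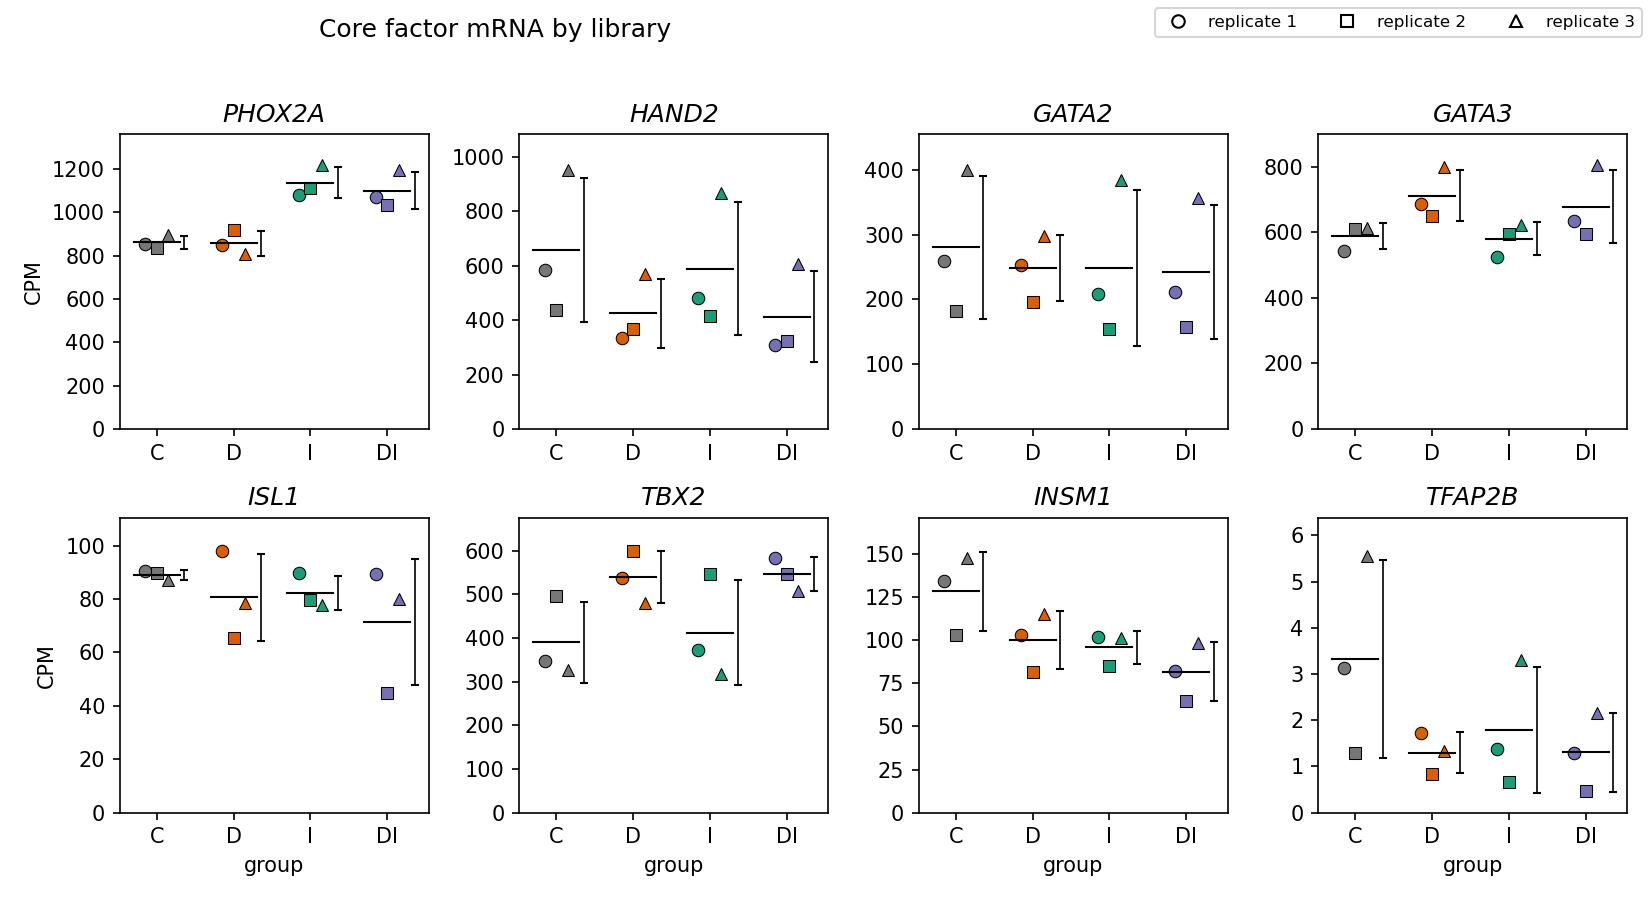
CPM of each core factor in the 12 libraries by group, with the replicate number as the marker shape, the group mean as a line and the SD (n = 3) as a bar at its right. PHOX2A libraries with IFNγ lie at 1034 to 1218 CPM, above all libraries without it, and the triangles of replicate 3 are the highest HAND2 and GATA2 values in every group.

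HAND2, a factor needed for sympathetic neurons to take on the noradrenergic identity, was lower with doxycycline in the blocked model. HAND2 (chromosome 4, 173524969 to 173530229, minus strand) was at 586, 436 and 950 CPM in C and at 335, 368 and 570 CPM in D. It was at 482, 415 and 868 CPM in I and at 309, 323 and 607 CPM in DI. Replicate 3 was the highest in every group, which makes the groups overlap, and within each replicate number the library with doxycycline was the lower in 6 of 6 ratios, from 0.572 to 0.843. The averaged log2 difference was -0.57 (SE 0.27, adjusted p = 0.233) in the 4-group model and -0.55 (SE 0.075, 0.682-fold, adjusted p = 0.000608) in the blocked model. That call held in all 12 fits that left out 1 library and all 3 that left out a replicate number, with values from -0.68 to -0.47. In the blocked model HAND2 fell by 0.60 in D against C (SE 0.11, adjusted p = 0.00603), where 13.9% of genes were called, and that call held in 6 of 6 fits without 1 library but was lost without replicate 1 (adjusted p = 0.119) or replicate 3 (adjusted p = 0.123). Each of the 9 blocked calls of a core factor in a comparison of single groups was lost without replicate 1 and without replicate 3, where the adjusted p ran from 0.102 to 0.378. It fell by 0.51 in DI against I (SE 0.11, adjusted p = 0.0151), where 10.5% of genes were called. The latter call was lost without replicate 1 or 3 of I or of DI (adjusted p = 0.0609 to 0.0874).

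HAND2 shares its start region with the antisense gene HAND2-AS1, and their values followed each other over the libraries. The 250 bases before the RefSeq start of HAND2, chr4:173530230-173530479 on the minus strand of GRCh38.p14, are shown because they also hold an annotated start of HAND2-AS1 on the opposite strand. Capitals mark the homeodomain letters TAATTA and the GATA letters AGATAA, both searched on both strands. The letters TAATTA begin at position -175 from the start and a reverse-strand AGATAA at -172, so that the matches overlap and appear as a single capital run.
HAND2: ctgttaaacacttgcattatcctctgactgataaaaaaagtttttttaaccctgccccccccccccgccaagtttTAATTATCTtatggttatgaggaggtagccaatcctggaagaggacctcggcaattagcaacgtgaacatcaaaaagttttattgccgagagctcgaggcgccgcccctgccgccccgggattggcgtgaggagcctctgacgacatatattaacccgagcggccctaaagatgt
TAATTA occurs in 4.84% and AGATAA in 10.3% of the 35116 windows, and among the windows of the core factors AGATAA was also found in that of ISL1, at -31. These are matches of letters and not tested sites. HAND2-AS1 was at 304, 229 and 479 CPM without either agent, 172, 193 and 331 with doxycycline, 291, 190 and 491 with IFNγ, and 178, 173 and 342 with both. It was at 45.8% to 60.3% of the HAND2 value in every library. Its log2 difference with doxycycline was -0.51 (SE 0.29, adjusted p = 0.328) in the 4-group model and -0.50 (SE 0.089, adjusted p = 0.00267) in the blocked model. The log2 CPM of HAND2 and HAND2-AS1 had a Pearson r of 0.98 over the 12 libraries, which share groups, replicate numbers and depth. Exons of HAND2-AS1 on the opposite strand cover 867 bases, or 24.1%, of the HAND2 exons, and whether the counting used strand is not given in the sources used here, so reads of the pair cannot be told apart in that part.

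TBX2, a T-box repressor of cell cycle inhibitors that is part of the adrenergic circuit, was higher with doxycycline in the blocked model. TBX2 (chromosome 17, 61399896 to 61409466, plus strand) was at 348, 497 and 326 CPM without either agent, 537, 599 and 480 with doxycycline, 372, 547 and 318 with IFNγ, and 584, 547 and 508 with both. Replicate 2 was the highest of C and of I, and reached the levels of the libraries with doxycycline, while replicates 1 and 3 lay below all of them. All 6 same-number ratios were above 1, from 1.0005 for replicate 2 under IFNγ to 1.60 for replicate 3 under IFNγ. The averaged difference was 0.44 (SE 0.15, adjusted p = 0.0983) in the 4-group model and 0.47 (SE 0.087, 1.38-fold, adjusted p = 0.00321) in the blocked model. Without I replicate 2 the 4-group model also called TBX2 (0.56, adjusted p = 0.0340). The blocked model called it in all 12 fits without 1 library, and not without replicate 1 (adjusted p = 0.0862) or replicate 3 (adjusted p = 0.0787). The blocked values were 0.48 (SE 0.12, adjusted p = 0.0269) for D against C and 0.45 (SE 0.12, adjusted p = 0.0439) for DI against I. These calls were lost without replicate 1 or 3 of C or of D for the former (adjusted p = 0.0991 to 0.110) and of I or of DI for the latter (adjusted p = 0.153 to 0.194).

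TBX2-AS1, the antisense neighbor of TBX2, was at 31.3 to 62.7 CPM, 8.42% to 11.4% of the TBX2 value. It differed with doxycycline by 0.36 (SE 0.18, adjusted p = 0.265) in the 4-group model and by 0.39 (SE 0.085, adjusted p = 0.00733) in the blocked model. Its Pearson r with TBX2 was 0.93 over the 12 libraries, and no exonic base of TBX2 lies under an exon of TBX2-AS1. GATA2-AS1, GATA3-AS1 and ISL1-DT had r of 0.65, 0.54 and 0.55 with their partners.

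**Figure D3:**
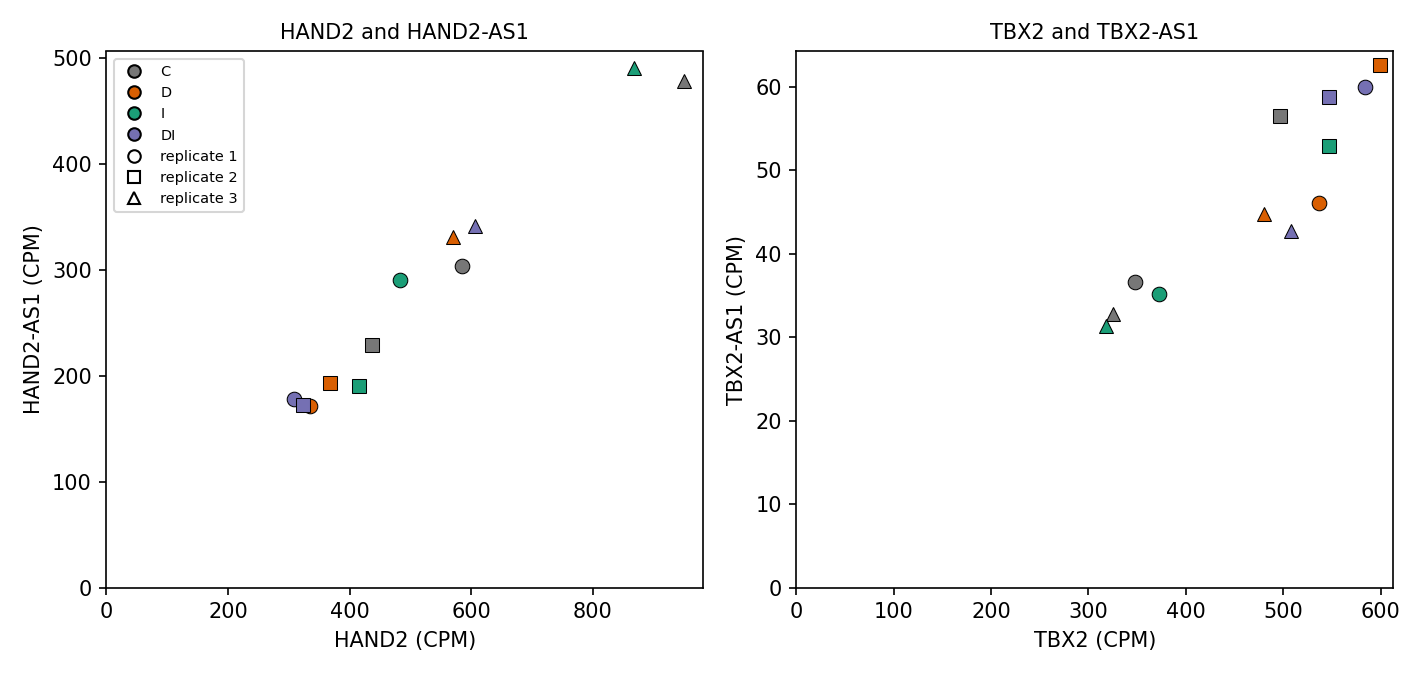
CPM of HAND2-AS1 against HAND2 and of TBX2-AS1 against TBX2, with color for group and shape for replicate number. HAND2-AS1 lay at 45.8% to 60.3% of HAND2 and TBX2-AS1 at 8.42% to 11.4% of TBX2 in all 12 libraries.

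GATA3, which is needed for sympathetic neurons and is bound at the enhancers of the adrenergic circuit, was at 544, 609 and 613 CPM in C and 685, 651 and 799 in D (chromosome 10, 8045378 to 8075203, plus strand). It was at 526, 594 and 622 CPM in I and 634, 596 and 804 in DI. All D libraries were above all C libraries, and DI overlapped I because DI replicate 2 was at the level of I. The averaged difference was 0.25 (SE 0.092, adjusted p = 0.128) in the 4-group model and 0.24 (SE 0.060, 1.18-fold, adjusted p = 0.0125) in the blocked model. The blocked call held without any single library, and was lost without replicate 1 (adjusted p = 0.157) or replicate 3 (adjusted p = 0.166). For D against C the blocked value was 0.27 (SE 0.084, adjusted p = 0.0585), and it passed when C replicate 2 was left out (adjusted p = 0.0386).

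GATA2 (chromosome 3, 128479427 to 128493185, minus strand) gave no call for doxycycline in either model. It was at 259, 182 and 400 CPM without either agent, 253, 196 and 297 with doxycycline, 208, 154 and 385 with IFNγ, and 212, 157 and 357 with both. Replicate 3 was the highest and replicate 2 the lowest in every group, and the groups lay on top of each other. The averaged doxycycline difference was -0.11 (SE 0.28) in the 4-group model and -0.06 (SE 0.085) in the blocked model, with 3 of 6 same-number ratios above 1.

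INSM1 was also lower with doxycycline in the blocked model, by 0.30 on the log2 scale (SE 0.053, adjusted p = 0.00219), and at -0.30 (SE 0.13, adjusted p = 0.202) in the 4-group model. All 6 same-number ratios were below 1, from 0.763 to 0.975. The call held without any single library and was lost without replicate 1 (adjusted p = 0.0612). INSM1 was thus the factor called with both treatments in the blocked model, and its lowest group mean was in DI, at 81.9 ± 16.9 CPM (SD, n = 3), against 129 ± 22.9 in C, 100.1 ± 16.9 in D and 96.1 ± 9.57 in I. In the blocked model it fell by 0.36 in D against C (SE 0.074, adjusted p = 0.0119), a call lost without C replicate 3 or D replicate 1 (adjusted p = 0.0525 to 0.0611), and it was at -0.25 (SE 0.075, adjusted p = 0.0599) in DI against I.

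TFAP2B (chromosome 6, 50818723 to 50847613, plus strand) was at 3.13, 1.29 and 5.55 CPM without either agent, 1.72, 0.828 and 1.33 with doxycycline, 1.39, 0.654 and 3.30 with IFNγ, and 1.28, 0.461 and 2.16 with both. The highest and second highest values were those of replicate 3 in C and in I, and the groups overlapped. The averaged doxycycline difference was -0.90 (SE 0.50, adjusted p = 0.319) in the 4-group model and -0.79 (SE 0.25, adjusted p = 0.0357) in the blocked model. The blocked call was lost in 7 of 12 fits without 1 library, those without C replicate 1 or 3, D replicate 3, I replicate 3 or any DI replicate (adjusted p = 0.0549 to 0.112). For D against C the blocked value was -1.16 (SE 0.35, adjusted p = 0.0495), and it was lost in 5 of 6 fits, all but that without D replicate 2 (adjusted p = 0.0677 to 0.176).

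ISL1 (chromosome 5, 51383391 to 51394738, plus strand) was at 90.6, 89.6 and 87.1 CPM without either agent, 97.8, 65.6 and 78.5 with doxycycline, 89.6, 79.6 and 77.7 with IFNγ, and 89.5, 44.7 and 79.9 with both. Replicate 2 was the lowest in D and in DI, and 44.7 CPM in DI replicate 2 was the lowest value of all. The averaged doxycycline difference was -0.17 (SE 0.16) in the 4-group model and -0.21 (SE 0.12, adjusted p = 0.207) in the blocked model.

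**Figure D4:**
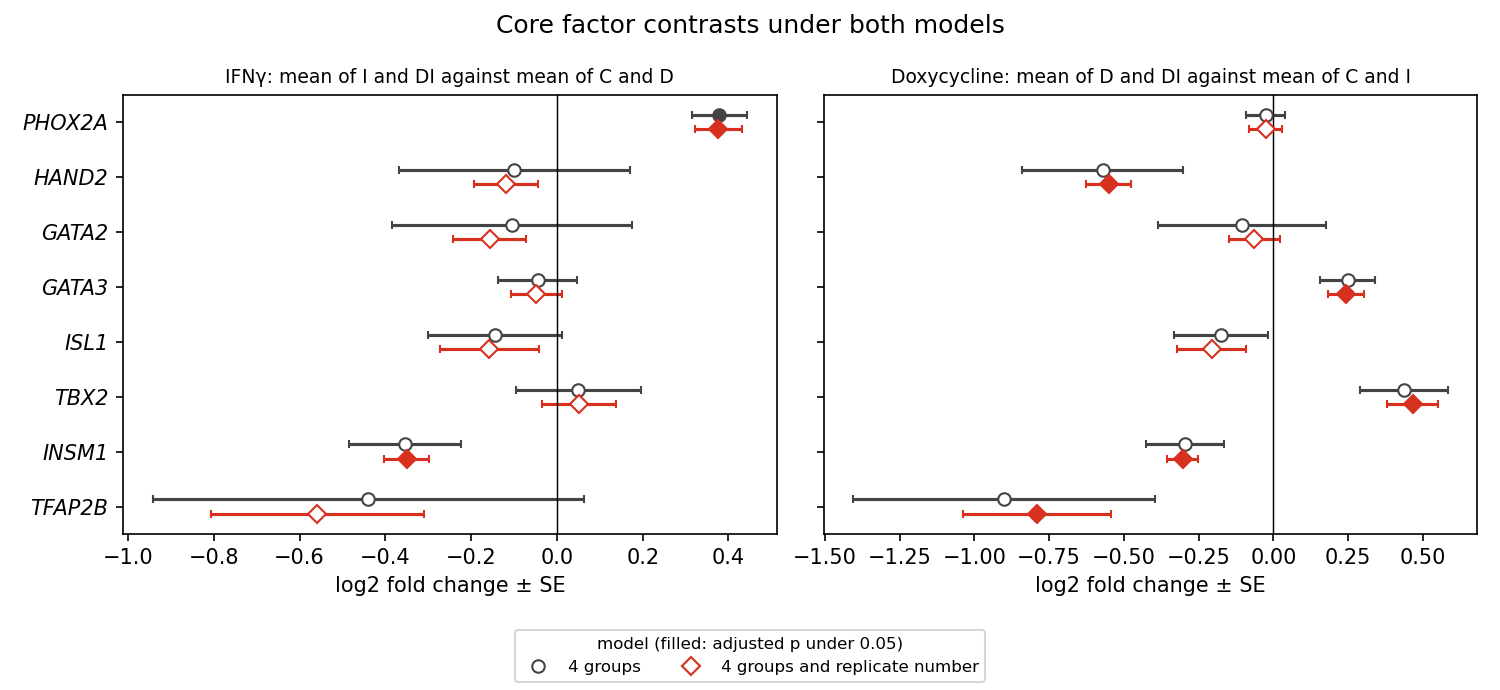
Log2 fold change ± SE of each core factor averaged over the other treatment, for IFNγ (left) and doxycycline (right), in the model of 4 groups (circles) and the model that also holds the replicate number (diamonds), with filled symbols at an adjusted p under 0.05. The SE is smaller with the replicate number, and PHOX2A with IFNγ is the single filled circle.

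No factor was called for a difference in its IFNγ response between cells with and without doxycycline. The interaction was called for 0 of 8 factors and for 0% of the 15828 genes in edgeR, where 99 genes had an unadjusted p under 0.05, for 2 genes in DESeq2 and for 0 in the blocked model. The interaction of the core factors ran from -0.06 (ISL1, SE 0.31) to 0.91 (TFAP2B, SE 1.00), and a p over the threshold does not show that the responses were alike.

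Some of the 8 factors varied more between replicate numbers than with any treatment. Replicate number held 89.3% of the sum of squares of log2 CPM over the 12 libraries for GATA2, 65.6% for HAND2 and 60.9% for TFAP2B, against a median of 35.8% over all tested genes. INSM1 was near that median at 39.8%, and GATA3 (35.1%), TBX2 (33.3%) and PHOX2A (2.87%) were below it. IFNγ held 86.4% of the sum of squares for PHOX2A and 32.2% for INSM1, against a median of 4.86%. Doxycycline held 51.1% for TBX2 and 45.6% for GATA3, against a median of 12.2%. ISL1 was split between replicate number (39.3%) and a remainder (37.8%). Replicate 3 was above replicate 2 by a mean log2 difference of 1.06 for GATA2, 0.93 for HAND2, 1.84 for TFAP2B and 0.47 for INSM1, and the same difference was -0.45 for TBX2.

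**Figure D5:**
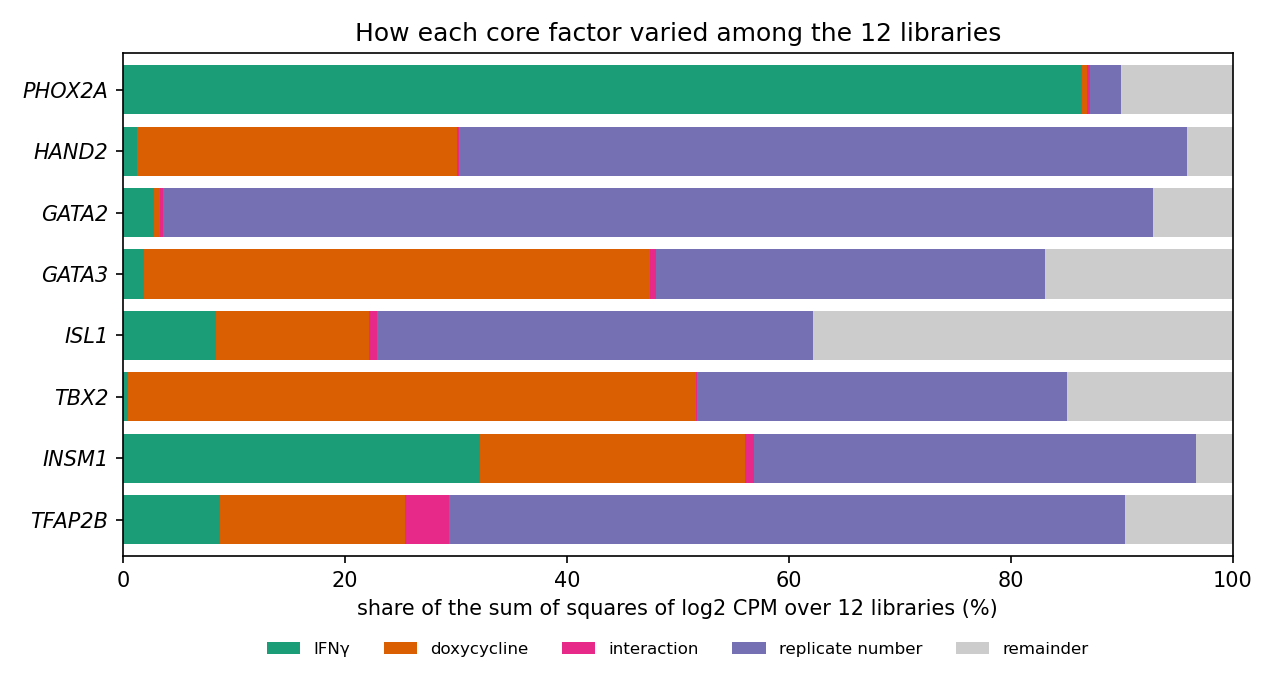
Share of the sum of squares of log2 CPM over the 12 libraries (percent) that falls to IFNγ, doxycycline, their interaction, the replicate number and the remainder, for each core factor. IFNγ fills 86.4% of the PHOX2A bar, and replicate number fills 89.3% of the GATA2 bar.

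Across the 12 libraries, which share replicate number and treatment, HAND2, GATA2, INSM1 and TFAP2B ranked libraries alike, with Pearson r of log2 CPM between 0.68 and 0.88 for their 6 pairs. TBX2 ran against them, at r of -0.85 with HAND2 and -0.63 with GATA2. PHOX2A was apart, with r between -0.44 and 0.096 with the other 7. The genes most like each factor, among those of at least 1 CPM, were MDGA1 (r = 0.96) and HLA-C (0.957) for PHOX2A, NOTUM (0.988) and TRABD (0.984) for HAND2, and MVD (0.98) and MVK (0.97), enzymes of the mevalonate pathway, for GATA2. HLA-C encodes a class I antigen-presenting chain that IFNγ is known to induce. For GATA3 they were BRD1 (0.958) and CTBP1-DT (0.946), for ISL1 ATMIN (0.946) and FH (0.945), for TBX2 MAPK9 (0.978) and DQX1 (0.976), for INSM1 TIMM13 (0.965) and TSPAN11 (0.96), and for TFAP2B CDCA3 (0.969) and SF3B5 (0.947).

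The family relatives are given beside the core factors from a list fixed by family name. With IFNγ, HAND1 fell by 0.40 (SE 0.097, adjusted p = 0.0476), from 296 to 336 CPM in C to 224 to 265 CPM in I, and the blocked model gave the same value (adjusted p = 0.0126). The blocked model also called INSM2 lower with IFNγ (-0.35, SE 0.093, adjusted p = 0.0353). TFAP2A, an AP-2 relative of TFAP2B, was higher with IFNγ (adjusted p = 0.00681) at a very low level. It had 0 or 1 counts in each library without IFNγ and 2 to 24 counts in each library with it, and its fitted fold change is no bound. TFAP2A thus passed the filter on low counts only through libraries with IFNγ. The filter fixed its direction, so its call is no independent result. With doxycycline 0 of 10 tested relatives were called in the 4-group model, against 7.68% of all genes, and 4 of 10 in the blocked model, against 29%. In the latter INSM2 was lower (-1.14, SE 0.094, adjusted p = 3.56e-05) and HAND1 (0.33, SE 0.085, adjusted p = 0.0158), TBX3 (0.47, SE 0.15, adjusted p = 0.0433) and GATA6 (1.32, SE 0.39, adjusted p = 0.0289) were higher. GATA6 rested on only 0 to 35 counts per library, and the 4-group model gave it 1.14 (SE 0.79, adjusted p = 0.428). INSM2 was at 344, 118 and 406 CPM in C and 169, 68.8 and 135 CPM in D. Some families held both a core factor and a relative called with doxycycline in the blocked model. Of these, INSM1 and INSM2 were both lower. TBX2 and TBX3 were both higher, as were GATA3 and GATA6, and HAND1 and HAND2 had opposite signs. GATA2 was not called. With 29% of all genes called in that model, no family pattern is drawn from these pairs.

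Of the other transcription regulators of the adrenergic circuit, 23 of 25 listed genes were tested. With doxycycline averaged over IFNγ, 3 were called in the 4-group model, against 7.68% of all genes: SOX11, a neural progenitor factor, rose by 0.43 (SE 0.11, adjusted p = 0.0369), and KLF13 and MYT1 fell by 0.40 and 0.44 (SE 0.082 and 0.094, adjusted p = 0.0174 and 0.0192). The blocked model called 8 of the 23, 4 in each direction, against 29% of all genes, so that this share was near the background. With IFNγ 1 of the 23 was called in the 4-group model, against 3.81% of all genes. This was TFAP2A, which passed the filter on low counts only through libraries with IFNγ. The blocked model called 4 higher and 4 lower, against 10.9%, the largest being TFAP2A, CUX2 (0.64, SE 0.11, adjusted p = 0.00329), LMO3 (-0.44, SE 0.092, adjusted p = 0.0104) and MYCN, the amplified oncogene of this line (-0.42, SE 0.052, adjusted p = 0.000309).

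Of 20 tested noradrenergic target genes 3 were called lower and 0 higher with doxycycline in the 4-group model, against 7.68% of all genes in either direction. The blocked model called 7 lower and 1 higher, against 29%. In the 4-group model the median log2 difference over the list was -0.46 against -0.00186 over all tested genes. Of 12 neuroblast markers, 5 of which are also in this list, 3 were called lower and 0 higher in the 4-group model, and 4 lower and 2 higher in the blocked model, against the same 7.68% and 29% of all genes, and their part in the results of the core factors was not tested. STMN2, a neuronal microtubule regulator, fell by 1.29 (SE 0.12, adjusted p = 0.000207), from 369 to 461 CPM in C to 135 to 194 CPM in D. GCH1, which makes the cofactor of tyrosine hydroxylase, fell by 1.56 (SE 0.15, adjusted p = 0.000314), from 17.4 to 23.9 CPM in C to 5.10 to 9.73 CPM in D. TH, tyrosine hydroxylase itself, was called at -3.82 (SE 0.94, adjusted p = 0.0349), and replicate 2 did not share its direction, with 3.13 CPM in C and 7.04 CPM in D. With IFNγ GCH1 rose by 1.39 (SE 0.15, adjusted p = 0.000174).

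Transcription regulators of the mesenchymal state, the alternative state of neuroblastoma cells, gave 5 of 26 tested genes higher and 0 lower with IFNγ in the 4-group model, against 3.81% of all genes, and 6 higher and 1 lower in the blocked model, against 10.9%. The largest in the 4-group model were IRF1 and IRF2 of the interferon regulatory factor family, RUNX1 and MAFF. The remaining call was IRF3 (1.14, SE 0.12, adjusted p = 9.02e-05), of the same family as IRF1 and IRF2. IRF1 also served above as the check of the IFNγ treatment, so this count is not separate from that check. IRF2 rose by 2.19 (SE 0.16, adjusted p = 5.85e-06) and MAFF by 2.18 (SE 0.33, adjusted p = 0.00207). RUNX1 was fitted at 6.99 (SE 0.77, adjusted p = 0.00062), a 127-fold change. Whether RUNX1, like TFAP2A, passed the filter on low counts only through libraries with IFNγ was not tested. Its call is therefore not read as an independent result, although the count of 5 includes it. With doxycycline 0 of 26 were called in that model, and 7 higher and 1 lower in the blocked model, where 29% of all genes were called, so that this share too was near the background.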

How the data were processed

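Gene-level raw counts were made and deposited by the authors for 12 libraries of paired-end total RNA sequencing. The aligner, the counting tool and its strand setting are not given in the sources used here. The authors also deposited comparison tables, per the file headers DESeq2 results with log2 fold changes and p-values, and neither these nor 18 further per-library columns in them were used. Positions and exon lengths were taken from GENCODE release 29 (GRCh38), where 43769 of 43769 identifiers were found, and promoter windows came from RefSeq (GRCh38.p14).

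Groups came from the sample titles. Counts were scaled by TMM, filtered by filterByExpr (minimum count 10) and tested with edgeR 4.0.16 (limma 3.58.1, R 4.3.3) in 1 quasi-likelihood model of all 12 libraries, two-sided, with Benjamini-Hochberg adjustment over 15828 genes. DESeq2 1.42.0, other scalings, no filter, a replicate block, a threshold of 0.01, fits on the compared libraries alone and fits without each library were alternatives. Leaving out libraries from the blocked model was added after the data were seen. Replicate numbers were taken to pair libraries, because same-numbered residuals correlated at 0.347 or above in all 18 pairs. Replicates of a group differed beyond counting noise (chi-square per gene 18.6 to 82.2), so none were merged. The steps of the 4-group model were tested on simulated data of independent libraries. These data held no effect of replicate number, and the blocked model was not tested on them.

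The members and gene lists were chosen with earlier results of these data known. Named genes were all 8 factors, the 2 genes of at least 1 CPM most correlated with each, up to 4 called genes per list and comparison with the largest change, and check genes. Some genes of the lists are not reported here.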

Additional observations from a re-analysis of the deposited data

How the results depend on the processing

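Over all tested genes the number called moved by over 1.5 times under several settings. At an adjusted p under 0.01 it was 32 for doxycycline alone, 30 for doxycycline under IFNγ, 396 for IFNγ averaged and 304 for doxycycline averaged. With DESeq2 it was 558 and 442 for IFNγ alone and under doxycycline, 825 and 635 for doxycycline alone and under IFNγ, 935 and 2236 for the averages, and 2 for the interaction, and the core factors called were 1 (PHOX2A) in each single IFNγ comparison (adjusted p = 0.000429 and 0.003) and 1 (TBX2) for doxycycline averaged (adjusted p = 0.0386). Without a filter it was 119 for doxycycline alone and 752 for doxycycline averaged, and on the 6 compared libraries alone 16 for doxycycline alone and 0 for doxycycline under IFNγ. Scaling by library size alone called 2 core factors with doxycycline averaged, GATA3 and TBX2 (adjusted p = 0.0382 and 0.0495), and 1681 genes. With the replicate block, a paired fit, the genes called were 953, 706, 2200, 1658, 1724 and 4593 in the order IFNγ alone, IFNγ under doxycycline, doxycycline alone, doxycycline under IFNγ, IFNγ averaged and doxycycline averaged, and the core factors called were 2, 1, 4, 2, 2 and 5. Leaving out libraries gave, in that order, 127 to 314, 98 to 244, 0 to 100, 0 to 77, 230 to 562 and 71 to 1362 genes, with 0 to 1 core factors in each average and 0 in the others. Leaving out libraries from the blocked model, which was added after the data were seen although the block itself was planned, gave 345 to 984, 249 to 777, 222 to 3521, 108 to 3242, 634 to 1742 and 1282 to 5950 genes, and 0 to 2, 0 to 1, 0 to 5, 0 to 3, 1 to 4 and 1 to 5 core factors. No called core factor changed direction in any of these fits. The causes of these shifts were not tested.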
